A study of Mus musculus with 6 samples.

Results

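The 10 genes described here encode the receptors through which acetylcholine and noradrenaline act on cells by way of G proteins: the 5 muscarinic receptors (Chrm1 to Chrm5) and 5 of the adrenergic receptors (Adra1a, Adra1b, Adra1d, Adra2a and Adra2c). They were taken by gene name from a deposited table of 55414 mouse genes, and each name matched 1 gene. The set was selected on the FPKM levels that these same libraries gave in the PV and Drd2 groups, so differences of its members between the neuron classes are given as a description, with no p-value. RNA sequencing had been done on male mouse neurons from the medial mammillary nucleus, a cell group at the back of the hypothalamus. Fluorescent cells were drawn into glass electrodes from slices treated with papain, and all 6 libraries share that treatment. The genotype label puts 3 libraries in a PV-positive group (parvalbumin, replicates 6, 7 and 8) and 3 in a Drd2-positive group (D2 dopamine receptor, replicates 1, 2 and 3). The sources used here do not give the ages, what drove the fluorescent labels, or how many cells and mice a library holds. The 3 libraries of a group are described as biological replicates. Values of a group are listed in the order of these replicate numbers.

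Muscarinic and adrenergic receptors each span the membrane with a bundle of helices and pass a signal to a G protein inside the cell. The M1, M3 and M5 muscarinic receptors and the alpha1 adrenergic receptors work mainly through Gq, which activates phospholipase C, releases calcium from stores and closes M-type potassium channels, and so tends to excite a neuron. The M2 and M4 receptors and the alpha2 receptors work mainly through Gi and Go, which lower cyclic AMP and open inward rectifier potassium channels, and so tend to quiet it. Acetylcholine and noradrenaline reach most brain regions from cholinergic and noradrenergic cells that lie elsewhere.

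The hallmark that joins the 10 receptors is a short aspartate-arginine-tyrosine motif at the inner end of the third helix, where the receptor meets its G protein. It was found in frame exactly 1 time in the coding sequence of each of the 10 genes. The 69 bases around it are shown for the 3 most abundant receptors and for Adra2a, an alpha2 receptor, because they show how related these genes are and where they part. Capitals mark the 9 bases of the motif, and lower case marks the 30 coding bases on either side (GENCODE M21, build mm10, each on the coding strand).
Chrm3 (chr13:9878471-9878539, minus strand): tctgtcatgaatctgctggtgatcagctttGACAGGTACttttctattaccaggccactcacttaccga
Chrm5 (chr2:112480353-112480421, minus strand): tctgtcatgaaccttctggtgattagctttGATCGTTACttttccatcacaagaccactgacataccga
Adra1b (chr11:43835627-43835695, minus strand): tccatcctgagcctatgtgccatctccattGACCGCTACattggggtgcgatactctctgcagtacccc
Adra2a (chr19:54046617-54046685, plus strand): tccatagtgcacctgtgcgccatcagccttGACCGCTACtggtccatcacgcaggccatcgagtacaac

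Within this stretch Chrm3 and Chrm5 were identical at 57 of 69 positions, and Chrm3 and Adra1b at 33. Even so, no stretch of 50 bases in the transcripts of any of the 10 genes occurred in another of them. For Chrm3, Chrm4, Chrm5, Adra2a and Adra2c no such stretch occurred in a transcript of any other gene, on either strand. For Adra1b 0.148% of its 50-base stretches did. Chrm1, Chrm2 and Adra1d each share exon bases with a gene on the opposite strand (Gm22820, 9330158H04Rik and Gm14285). The sources used here do not say whether the authors' counting used strand, so reads there cannot be told apart. In the gene models that match the table, Chrm4 is 1440 bases and Chrm5 1599 bases long and each consists of the coding sequence with its stop codon, so reads outside the coding sequence do not enter the values of these 2 genes.

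The libraries differed in ways that touch all results. The FPKM denominators, recovered from the steps in the low values, were 23.8 to 33.7 megafragments per library, so reads behind each value could be counted. FPKM values count fragments per kilobase of exon and per megafragment of the library, so levels of different genes are on a common scale. Comparisons between genes also rest on their gene models, which for Chrm4 and Chrm5 hold the coding sequence only. Genes at 1 FPKM or more numbered 11110 to 12233 in Drd2 and 8610 to 12398 in PV, the fewest in PV replicate 7. Drd2 replicate 3 held 7.74 FPKM of Drd2 and 99.5 FPKM of Pvalb, the least Drd2 and the most Pvalb of its group. Mitochondrial genes made up 9.62% to 31.3% of the FPKM total in PV and 3.74% to 5.20% in Drd2. The 4 haemoglobin genes summed to 743 to 3203 FPKM in PV and to at most 11.5 FPKM in Drd2. Both of these move with the groups, and their part in the results was not tested. All 8 neuron markers were found in all 6 libraries. Of 9 mammillary transcription factors, 7 reached 1 FPKM in at least 1 library, while Lmx1a and Lmx1b did not. Foxb1 was at 76.4, 52.6 and 26.4 FPKM in Drd2 and at 24.0, 4.19 and 14.7 FPKM in PV, without overlap. Of the 5 tested factors, 4 had a log2 difference (PV minus Drd2) below 0 and 1 above 0. The factors thus differed in level between the groups, and their part in the results was not tested.

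**Figure D1:**
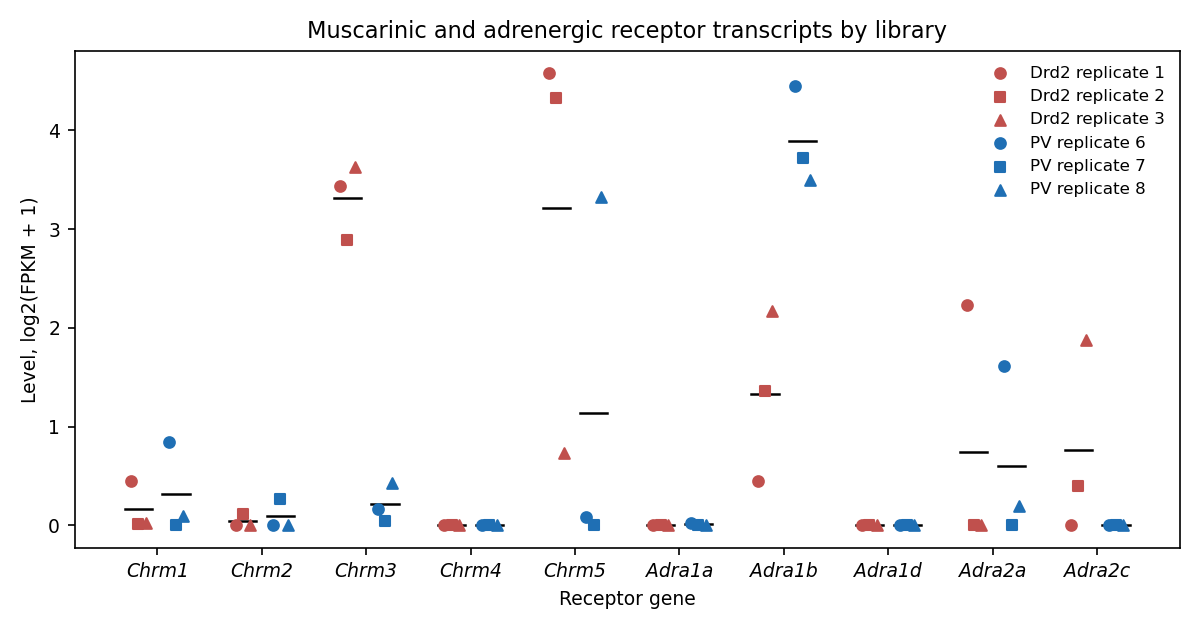
Level of each of the 10 receptor genes on the log2(FPKM + 1) scale (vertical axis) in the 3 Drd2 libraries (red) and 3 PV libraries (blue), with black bars at the group means. Chrm3 is high in all 3 Drd2 libraries and Adra1b in all 3 PV libraries, Chrm5 is split within both groups, and the other genes lie near 0 in most libraries.

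Chrm3 was the muscarinic receptor transcript that set the classes apart. The gene encodes the M3 receptor, a Gq-coupled receptor known from glands and smooth muscle and also made in the brain, and lies on mm10 chromosome 13 (9875486 to 10360847, minus strand). It was at 9.79, 6.43 and 11.4 FPKM in Drd2 replicates 1 to 3, from 2065, 1207 and 1696 reads. In PV replicates 6 to 8 it was at 0.123, 0.0289 and 0.344 FPKM, from 23, 5 and 61 reads. All 3 Drd2 libraries were high, all 3 PV libraries were low, and the lowest Drd2 value was 18.7 times the highest PV value. The group means were 9.20 ± 2.53 FPKM in Drd2 and 0.165 ± 0.162 FPKM in PV (SD, n = 3 each), the Drd2 mean being 55.6-fold higher. On the log2(FPKM + 1) scale, which understates folds of low genes, the difference was -3.11 ± 0.62 (limma SE; PV minus Drd2). The median difference of all tested genes was -0.28, and relative to it Chrm3 lay at -2.83. Chrm3 was at its highest in Drd2 replicate 3, the library with the least Drd2 transcript of its group.

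Adra1b ran the other way. It encodes the alpha1B receptor, which couples noradrenaline to the same Gq pathway, and lies on chromosome 11 (43774606 to 43901210, minus strand). Its level was 20.9, 12.2 and 10.3 FPKM in PV replicates 6 to 8, from 2106, 1142 and 986 reads. In Drd2 replicates 1 to 3 it was 0.368, 1.57 and 3.50 FPKM, from 42, 159 and 282 reads. Every PV library was above every Drd2 library, with the lowest PV value 2.94 times the highest Drd2 value. In its low group Adra1b had 42 reads or more in every library, where Chrm3 in its own low group had 5 to 61. The group means were 14.5 ± 5.65 FPKM in PV and 1.81 ± 1.58 FPKM in Drd2 (SD, n = 3 each), a 7.98-fold higher mean in PV. The log2 difference was 2.56 ± 0.69 (limma SE), or 2.84 relative to that of all tested genes. Among the Drd2 libraries Adra1b had the same order as Pvalb, which was at 10.4, 22.5 and 99.5 FPKM in replicates 1, 2 and 3. Within the PV group the order was the opposite, since Pvalb was at 349, 482 and 563 FPKM in replicates 6, 7 and 8.

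Markers of other cells were set beside these values. In bulk libraries of this kind, fewer cells of a type and less RNA per cell cannot be told apart. The 10 astrocyte markers, all found in at least 1 library, summed to 161, 374 and 600 FPKM in Drd2 replicates 1 to 3 and to 711, 649 and 584 FPKM in PV replicates 6 to 8. This is the order of Adra1b within each group, and the part of these transcripts in the Adra1b result was not tested. Of the 7 tested astrocyte markers 5 had a log2 difference above 0, and their median was 0.67, where that of all tested genes was -0.28. Most of the sum was Aldoc, at 137, 311 and 486 FPKM in Drd2 and 510, 485 and 512 FPKM in PV. Its order in PV was not that of Adra1b. Aldh1l1, an astrocyte enzyme that was not tested, had the order of Adra1b, with 0.295, 0.524 and 0.975 FPKM in Drd2 and 8.54, 5.08 and 0.992 FPKM in PV. The water channel Aqp4 overlapped, with 0 to 3.90 FPKM in Drd2 and 1.58 to 2.71 FPKM in PV. Gja1, Slc4a4 and Slc1a3 went the other way, with log2 differences of -0.87, -0.24 and -0.09. The 12 microglial markers, all above 0 in at least 1 library, summed to 23.9, 118 and 4068 FPKM in Drd2 and to 1797, 1071 and 501.5 FPKM in PV. Their order within each group was also that of Adra1b, 11 of the 12 had a log2 difference above 0 (median 1.65), and their part was not tested. Drd2 replicate 3 held the most microglial transcript of all 6 libraries and less Adra1b than any PV library. The 10 oligodendrocyte markers summed to 412, 1467 and 74.2 FPKM in Drd2 and to 69.8 to 337 FPKM in PV. Of these 10 markers, 9 had a log2 difference below 0, the direction of Chrm3, with a median of -1.62, and their part in the Chrm3 result was not tested. Mog, a myelin protein, did not overlap, with 51.5, 254 and 7.85 FPKM in Drd2 and 2.54, 0 and 0.228 FPKM in PV (log2 difference -4.91, limma adjusted p = 0.108). Within the Drd2 group Chrm3 was highest in replicate 3, which had the lowest oligodendrocyte sum. No cause is read from any of these orders. Of 8 vascular markers, 6 were below 1 FPKM in every library, and Cldn5, which marks brain endothelium, was listed at 0 in all 6.

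Chrm5 did not follow the labels as Chrm3 did. It encodes the M5 receptor, the muscarinic subtype best known from midbrain dopamine neurons, and its coding sequence lies in a single exon on chromosome 2 (112479171 to 112480769, minus strand). It was at 22.9, 19.1 and 0.656 FPKM in Drd2 replicates 1 to 3 (1234, 917 and 25 reads), and at 0.0629, 0 and 9.04 FPKM in PV replicates 6 to 8 (3, 0 and 410 reads). The 2 Drd2 libraries richest in Chrm5 held 42.7 and 55.0 FPKM of Drd2, while PV replicate 8, which held 9.04 FPKM of Chrm5, had Drd2 listed at 0. The groups overlapped, because PV replicate 8 was above Drd2 replicate 3. Group means were 14.2 ± 11.9 FPKM in Drd2 and 3.04 ± 5.20 FPKM in PV (SD, n = 3 each), and the log2 difference was -2.07 ± 1.23 (limma SE). Without Drd2 replicate 3 it was -3.31, and without PV replicate 8 it was -3.17. Over all ways of leaving out 1 library it ran from -3.31 to -1.39, against -3.32 to -2.95 for Chrm3.

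The other muscarinic receptors were scarce. Chrm1, the M1 receptor that is abundant in cortex and hippocampus, reached 0.796 FPKM at most, in PV replicate 6 (154 reads), with 80, 2 and 3 reads in Drd2 replicates 1 to 3 and 0 and 12 reads in PV replicates 7 and 8. Chrm2, the Gi-coupled M2 receptor, had 15 reads in Drd2 replicate 2 and 34 reads in PV replicate 7 and none in the other 4 libraries. Chrm4, the Gi-coupled M4 receptor that is prominent in striatum, was listed at 0 in all 6 libraries. At these depths 3 reads, the limit that a count of 0 allows, correspond to 0.0617 to 0.0874 FPKM for Chrm4. Reads are PCR copies without molecular identifiers, so such limits cover counting error only.

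The remaining adrenergic members were patchy. Adra2a, the alpha2A receptor, was at 3.68 FPKM in Drd2 replicate 1 (600 reads), 2.07 FPKM in PV replicate 6 (298 reads) and 0.146 FPKM in PV replicate 8 (20 reads), and was listed at 0 in the other 3 libraries. It was therefore present or absent by library and not by class, with group means of 1.23 ± 2.12 FPKM in Drd2 and 0.738 ± 1.15 FPKM in PV (SD, n = 3 each). Adra2c, the alpha2C receptor, was found in 2 Drd2 libraries, at 0.319 and 2.67 FPKM in replicates 2 and 3 (33 and 219 reads), and was listed at 0 in Drd2 replicate 1 and in all 3 PV libraries. Adra2a and Adra2c never occurred in the same library. Adra1a had 4 reads in PV replicate 6 and 1 read in PV replicate 8 and no others. Adra1d was listed at 0 in all 6 libraries, where 3 reads correspond to 0.0468 to 0.0663 FPKM.

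Other adrenergic receptor genes outside the set were low as well. Adrb1 and Adrb3, which encode beta receptors that raise cyclic AMP through Gs, and Adra2b stayed below 1 FPKM in every library. Adrb1 had 0, 96 and 66 reads in Drd2 replicates 1 to 3 and 7, 4 and 15 reads in PV replicates 6 to 8. Adra2b had 12 reads in Drd2 replicate 2 and none elsewhere, and Adrb3 was listed at 0 throughout.

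Ordered by mean level, the receptors of the Drd2 libraries ran from Chrm5 and Chrm3 to Adra1b, Adra2a (1.23 FPKM), Adra2c (0.995 FPKM), Chrm1 (0.132 FPKM) and Chrm2 (0.0275 FPKM). Chrm5 and Chrm3 overlapped between libraries, Chrm3 and Adra1b did not, and each lower neighbour overlapped the next. In the PV libraries Adra1b came first, then Chrm5, Adra2a (0.738 FPKM), Chrm1 (0.287 FPKM), Chrm3, Chrm2 (0.0676 FPKM) and Adra1a (0.00647 FPKM). Adra1b, at 10.3 FPKM or more, lay above all PV values of Chrm5, by the least in PV replicate 8, where Chrm5 was at 9.04 FPKM. The lower neighbours overlapped.

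**Figure D2:**
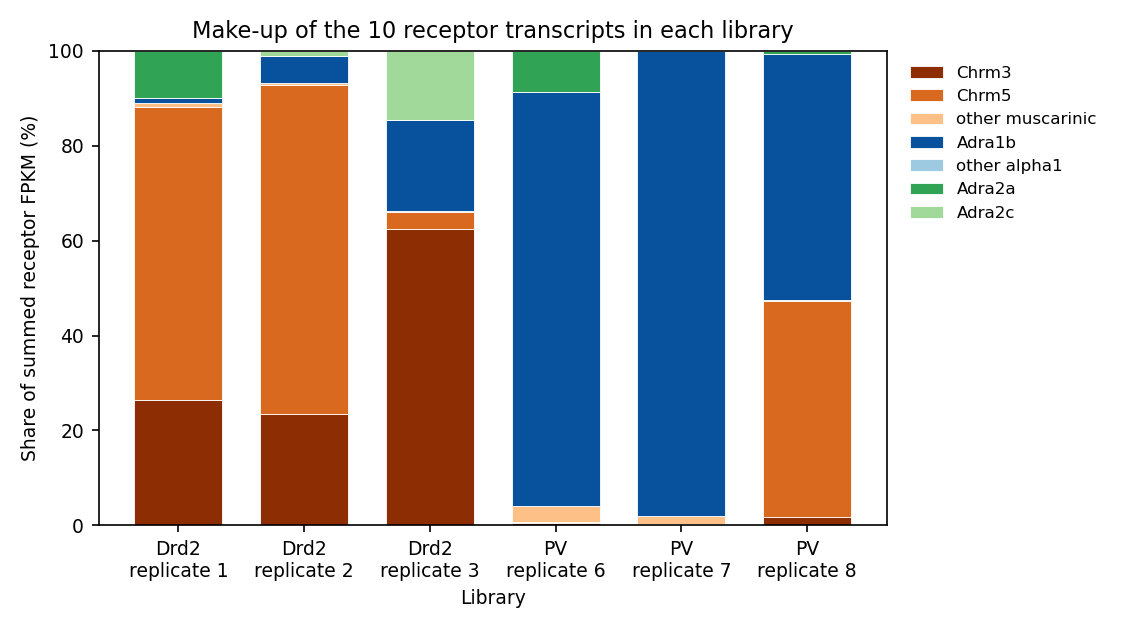
Share of the summed FPKM of the 10 receptor genes (vertical axis, percent) taken by each receptor in each of the 6 libraries; the bars of 1 library add to 100%. Chrm3 and Chrm5 fill most of the Drd2 bars and Adra1b most of the PV bars, with Chrm5 at 45.5% in PV replicate 8.

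Because shares within a library do not depend on its scaling, the make-up of the receptor set was compared library by library. The 10 genes summed to 37.1, 27.5 and 18.2 FPKM in Drd2 replicates 1 to 3 and to 24.0, 12.4 and 19.9 FPKM in PV replicates 6 to 8, so the totals overlapped. Muscarinic receptors made up 89.1%, 93.1% and 66.2% of these sums in Drd2 and 4.10%, 1.86% and 47.5% in PV. The alpha1 receptors, nearly all of it Adra1b, made up 0.993%, 5.69% and 19.2% in Drd2 and 87.3%, 98.1% and 51.7% in PV. Both shares were without overlap between the groups. Expressed as a log2 ratio, Adra1b over Chrm3 was -4.73, -2.04 and -1.70 in Drd2 replicates 1 to 3. It was 7.40, 8.72 and 4.90 in PV replicates 6 to 8. Chrm3 was the higher of the pair in 3 of 3 Drd2 libraries and Adra1b in 3 of 3 PV libraries. Each of the pair was already without overlap, in opposite directions, so a split of their ratio follows from those levels and adds no support. The shares likewise describe a set that was selected on these levels.

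Most of the summed level came from Gq-coupled receptors in every library. The 6 Gq-coupled members made up 90.1%, 98.5% and 85.4% of the sum in Drd2 replicates 1 to 3 and 91.4%, 98.4% and 99.3% in PV replicates 6 to 8. The means were 91.3% ± 6.68 for Drd2 and 96.3% ± 4.33 for PV (SD, n = 3 each), with overlapping ranges. The 4 Gi/o-coupled members made up 0.734% to 14.6%, the most in Drd2 replicate 3, where Adra2c supplied it, and in Drd2 replicate 1 and PV replicate 6, where Adra2a did.

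For the comparison across all genes, genes that reached 1 FPKM in 3 or more libraries were tested with limma on log2(FPKM + 1). This filter kept 3 of the 10 receptor genes, Chrm3, Chrm5 and Adra1b, of which Chrm3 passed only through its values in Drd2. Of the other 7, 5 had reads but too few and 2 were at 0 throughout. By limma 0 of these 3 passed an adjusted p of 0.05, where 0.261% of all 11478 tested genes did, and 2 had an unadjusted p under 0.05, where 12.8% did. In the direction of Chrm3 and Chrm5, higher in Drd2, 0.218% of all tested genes passed the adjusted threshold, and in that of Adra1b, higher in PV, 0.0436% did. With limma without the intensity trend 1 of the 3 passed, where 46 of all 11478 tested genes did. With limma voom on the recovered reads 0 did, where 22 of 11431 tested genes did. Groups did not overlap for 2 of the 3, where this held for 19.0% of all tested genes, 13.1% higher in Drd2 as Chrm3 was and 5.83% higher in PV as Adra1b was. Since the set was selected on these levels, nothing is read from these counts.

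**Figure D3:**
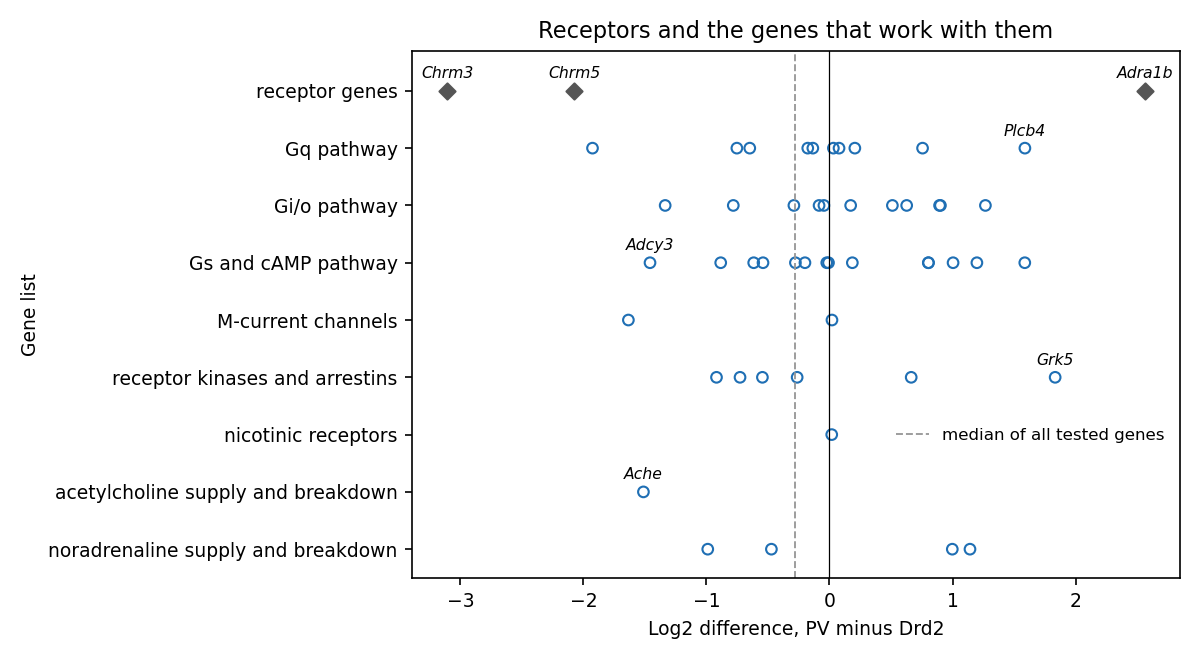
Log2 difference between the classes (horizontal axis, PV minus Drd2, log2(FPKM + 1) scale). Grey diamonds are the 3 tested receptor genes, all of them named whatever their p. Blue circles are the tested genes of 8 lists of related genes, 1 row per list. Among the list genes, names mark Plcb4, Adcy3, Grk5 and Ache, each with an unadjusted limma p under 0.05. The dashed line is the median of all tested genes, -0.28. The 3 receptor genes lie farther from 0 than any of the list genes.

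The next question was whether related genes differed in step. These were genes that act downstream of the receptors, other receptors for the same transmitters, and genes of transmitter supply and breakdown. Of 91 names in the 9 lists of related genes 89 were in the table, and 49 were tested. By limma with Benjamini-Hochberg adjustment over all genes, 0 of the 49 passed, and 5 had an unadjusted p under 0.05, 2 higher in PV and 3 higher in Drd2. Over all tested genes 0.261% passed and 12.8% had an unadjusted p under 0.05, so the related genes did not stand out by these counts. Limma voom on the recovered reads gave 0 as well.

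The Gq subunits themselves were present in every library. The mean FPKM of Gnaq was 14.1 ± 6.45 for Drd2 and 14.2 ± 1.95 for PV, and that of Gna11 was 26.2 ± 20.4 and 21.1 ± 11.4 (SD, n = 3 each). Of 17 genes of the Gq pathway 10 were tested, 5 of them with a difference above 0, and the list median was -0.05, where that of all tested genes was -0.28. Plcb4, a phospholipase C that Gq activates, had FPKM levels of 15.4, 10.8 and 16.2 in Drd2 and 32.9, 61.1 and 41.8 in PV, without overlap. Its log2 difference of 1.59 ± 0.45 did not pass (limma adjusted p = 0.185). Prkca, the alpha form of protein kinase C, had a log2 difference of -0.75 (limma adjusted p = 0.671).

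Among 11 tested genes of the Gi/o pathway 6 had a difference above 0, with a list median of 0.17. Kcnj3, a subunit of the inward rectifier channel opened by these G proteins, was at 8.95, 9.81 and 3.43 FPKM in Drd2 and 15.1, 28.2 and 13.2 FPKM in PV, without overlap (log2 difference 1.27, limma adjusted p = 0.415). Gnai2, an inhibitory alpha subunit that is also abundant in microglia, had a log2 difference of -1.34 and Gnb1, a beta subunit, of 0.89 (limma adjusted p = 0.456 and 0.514). Of the Gs and cyclic AMP genes 14 were tested, 6 of them above 0, with a median of -0.01. The adenylyl cyclase Adcy3 was at 1.34, 2.78 and 2.38 FPKM in Drd2, at 0.446 FPKM in PV replicate 6, and at 0 in PV replicates 7 and 8 (log2 difference -1.46, limma adjusted p = 0.275). Another cyclase, Adcy9, had a log2 difference of 1.59 and Prkar1b, a regulatory subunit of protein kinase A, of -0.88 (limma adjusted p = 0.408 and 0.442).

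Kcnq5, a subunit of the M-type potassium channels that Gq-coupled receptors close, had a mean of 5.57 ± 1.92 FPKM for Drd2 and 1.42 ± 1.59 for PV (SD, n = 3 each). Its log2 difference of -1.63 did not pass (limma adjusted p = 0.393). Of the kinases and arrestins that switch receptors off, 6 of 7 found genes were tested, 2 of them above 0, with a median of -0.40. Grk5, a receptor kinase, was at 1.34, 4.66 and 3.24 FPKM in PV, at 0.238 FPKM in Drd2 replicate 3, and was listed at 0 in Drd2 replicates 1 and 2. Its log2 difference of 1.83 ± 0.56 did not pass (limma adjusted p = 0.211). Grk6 had a log2 difference of -0.92 and the arrestin Arrb2 of -0.73 (limma adjusted p = 0.621 and 0.722).

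Genes that supply and remove the transmitters were examined last. Ache, the enzyme that breaks down acetylcholine, was the most abundant of its list, at 104, 130 and 89.9 FPKM in Drd2 and 68.1, 17.3 and 41.9 FPKM in PV. All Drd2 libraries lay above all PV libraries, and the log2 difference of -1.51 ± 0.51 did not pass (limma adjusted p = 0.254). The genes that make and load acetylcholine were close to absent, since Chat reached 0.14 FPKM at most and Slc18a3 and Slc5a7 were listed at 0 in all 6 libraries. Of 13 nicotinic receptor subunits, the ion channels that acetylcholine opens, 10 stayed below 1 FPKM in every library, and the 1 tested, Chrnb2, had a mean of 5.23 ± 4.44 FPKM for Drd2 and 4.55 ± 1.73 for PV (SD, n = 3 each; limma adjusted p = 0.995). Of 9 genes of noradrenaline supply and breakdown, 3 were listed at 0 in all 6 libraries, among them Dbh and Slc6a2, which make and take up noradrenaline. Each of the others reached 1 FPKM in at least 1 library, and 4 were tested. The monoamine oxidases Maoa and Maob and the decarboxylase Ddc had log2 differences of 1.00, -0.99 and 1.14, none past the threshold (limma adjusted p = 0.629, 0.716 and 0.639), and the sign of Ddc turned to -0.045 without Drd2 replicate 3 and PV replicate 7 together and that of Maob to 0.0085 without PV replicate 8.

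Genes with a pattern like that of the leading receptor of each class were sought by Pearson's r of log2(FPKM + 1) over the 6 libraries, as a description. For Chrm5, the muscarinic receptor with the highest mean over all libraries, they were Rasgef1b (0.996), Slc35e4 (0.995) and Wdyhv1 (0.991), and 29 tested genes had an r above 0.95. Slc35e4, for example, was at 14.0, 13.6 and 0.356 FPKM in Drd2 replicates 1 to 3 and at 0, 0 and 8.79 FPKM in PV replicates 6 to 8, with the same low Drd2 library and the same high PV library as Chrm5. For Adra1b they were Sec63 (0.985), Brinp3 (0.977) and Ddhd1 (0.975), and 19 tested genes had an r above 0.95. Brinp3 was at 0.525, 2.61 and 13.2 FPKM in Drd2 and 45.5, 33.2 and 23.6 FPKM in PV. For Adra2a they were Mtdh (0.970), Grb2 (0.961) and Fam20c (0.955), and 5 tested genes had an r above 0.95. Adra2a itself was listed at 0 in 3 libraries and was not tested, so these r rest on few libraries. All points come from the same 6 libraries, so r also carries what those libraries share, such as depth and other cells. The named genes were the highest among 11478 tested genes, and with 6 points a high r can also arise by chance.

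**Figure D4:**
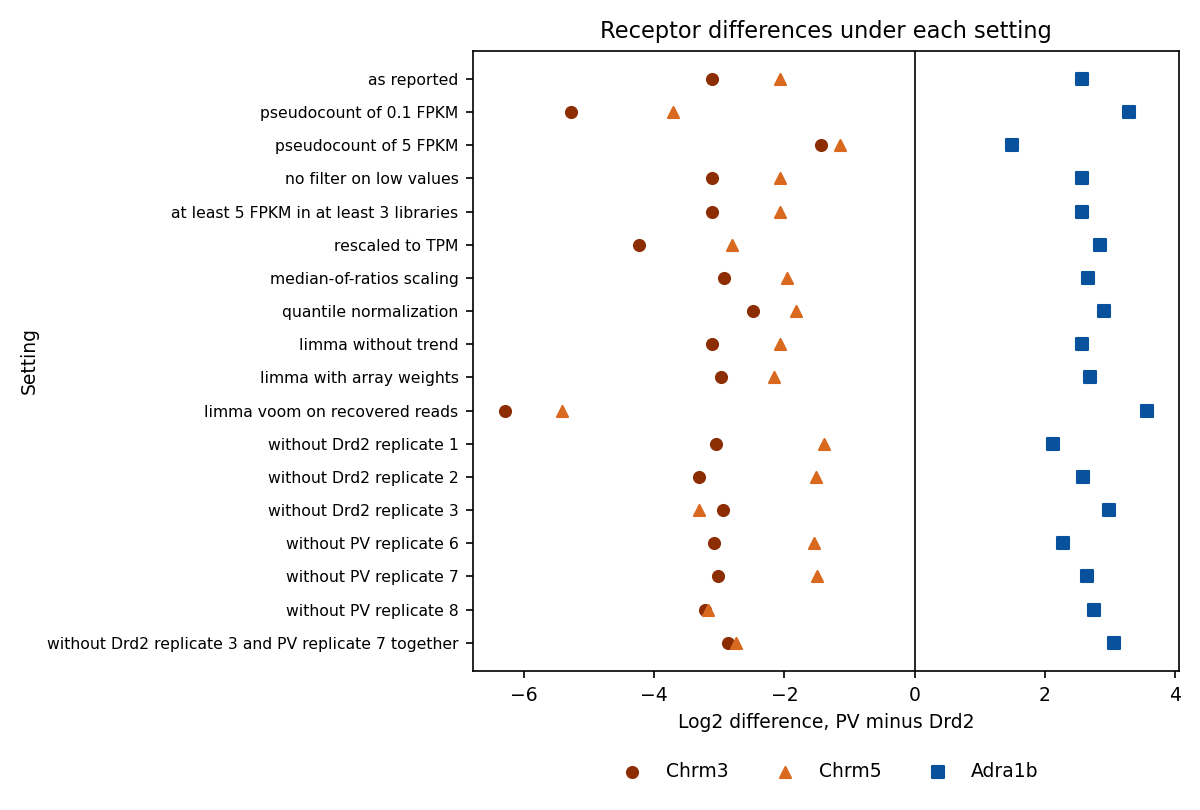
Log2 difference (horizontal axis, PV minus Drd2) of Chrm3, Chrm5 and Adra1b as reported and under each of 17 other settings (1 row each). Chrm3 and Chrm5 stay below 0 and Adra1b above 0 in every row, while the sizes change, from -6.29 to -1.44 for Chrm3. For Chrm3 and Adra1b, without overlap between the groups, no pseudocount and no left-out library could change the side.

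The size of the receptor differences depended on the scale more than on any single library. With pseudocounts of 0.1 and 5 FPKM, Chrm3 was at -5.27 and -1.44 and Adra1b at 3.30 and 1.50 on the log2 scale. Rescaled to a common total (TPM) they were at -4.23 and 2.84, and with limma voom on recovered reads, where no FPKM pseudocount enters, at -6.29 and 3.57. Leaving out 1 library at a time gave -3.32 to -2.95 for Chrm3 and 2.13 to 2.98 for Adra1b.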

How the data were processed

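Gene levels were deposited by the authors as FPKM values in 1 table with 1 column per library. The submitters' processing notes name STAR and the builds hg38, GRCh38 and mm10, and the sources used here do not give the quantifier or the annotation. Of the table's identifiers, 94.1% were found in GENCODE M21 (mm10). FPKM times exon length gave whole reads: 97.9% to 98.8% of values of at most 20 reads lay within 0.01 read of a whole number. The 2 groups were compared on log2(FPKM + 1) with an intensity trend in limma 3.58.1 under R 4.3.3, 2-sided, over genes reaching 1 FPKM in 3 or more libraries, with Benjamini-Hochberg adjustment at 0.05. The fit was tested on simulated data with changes planted only in genes of a higher mean level than these receptors. That test therefore does not speak for genes at their level. The receptor genes and gene lists were chosen with earlier results of these data known. Named were all receptor genes, other adrenergic receptors, in each list every gene past the threshold or otherwise up to 3 tested genes with the smallest p, the 3 tested genes with the highest Pearson r to the leading receptor of each class, and Pvalb and Drd2; some genes that this rule takes in are not reported here. Gnaq, Gna11, Chat, Slc18a3, Slc5a7, Dbh, Slc6a2 and individual markers of other cells were named after their values were seen. Adrbk1 and Adrbk2, older names of Grk2 and Grk3, were the 2 list names with no row of their own. Alternatives were other pseudocounts, filters, scalings and variance models, voom, and leaving out each library. Leaving out Drd2 replicate 3 and PV replicate 7 together was chosen after seeing the data.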

Additional observations from a re-analysis of the deposited data

How the results depend on the processing

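Chrm3, Chrm5 and Adra1b kept their direction in all 17 alternatives. For Chrm3 and Adra1b the groups did not overlap, so no pseudocount and no left-out library could turn the sign. The set was selected on these levels, so their kept direction adds no support. The count of receptor genes past the threshold was 0, and 1 with limma without trend; that of related genes was 0 in all 17. Over all genes 30 passed. This became 4 and 68 with pseudocounts of 0.1 and 5 FPKM, 0 with no filter (1509 at an unadjusted p under 0.05), 68 with quantile normalization, 46 without trend and 105 with array weights. It ran from 1 to 56 when 1 library was left out and was 18 without Drd2 replicate 3 and PV replicate 7 together. Of all calls, 16.7% were higher in PV, and 32.4% with quantile normalization, which moved the median difference of all genes from -0.28 to 0.05; with TPM it was -0.50. That share was 31.8% with voom and ran from 7.14% (without PV replicate 6) to 100% when 1 library was left out: without Drd2 replicate 1, 2 or 3, 0 genes were higher in Drd2 and 2, 3 and 1 were higher in PV. Of 333 values for 20 single genes, 323 kept their sign. Settings that change only the filter or the trend leave the difference itself as it was, so their values could not turn. The sign of Chrnb2 (0.018 as reported) turned with a pseudocount of 5 FPKM (-0.031), TPM (-0.12), array weights (-0.15), voom (-0.014) and without Drd2 replicate 3 and PV replicate 7 together (-0.61), and ran from -0.37 to 0.56 when 1 library was left out. Ddc turned without Drd2 replicate 3 and PV replicate 7 together (-0.045), and Maob ran from -1.89 to 0.0085 when 1 library was left out. The cause was not tested. No paired analysis was possible because the groups share no replicate numbers. Values of a few reads are limited by depth.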
